A study of Drosophila melanogaster with 6 samples.

Results

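The protein-coding genes of the fourth chromosome of Drosophila melanogaster were followed through 6 libraries of RNA that came down with an antibody from ovary lysate. Members were the genes that the experiment 2 tables place on chromosome 4 with the biotype protein_coding, leaving out names that start with RpS, RpL, ATPsyn, eIF, mRp or Pros. This rule uses the annotation and no measured value. It gave 76 members of 79 protein-coding genes on chromosome 4, out of 13926 protein-coding genes and 17398 genes of any biotype. The name rule removed RpS3A, ATPsynbeta and eIF4G1, and all 76 members were also found in the experiment 1 tables.

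The fourth chromosome is the smallest autosome of the fly, and its genes lie among repeats in chromatin that carries heterochromatin protein HP1 and methylated histone H3. Many of these genes are nevertheless transcribed in every tissue. The methyltransferase egg and the protein Pof, which binds nascent RNA of this chromosome, set it apart from the pericentric heterochromatin of the other chromosomes, where a smaller number of active genes also sit among repeats. Lsd1, encoded by Su(var)3-3, removes methyl groups from histone H3 and works with CoRest, while Bre1 is the ligase that attaches ubiquitin to histone H2B.

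In RNA immunoprecipitation the RNA that stays bound to an antibody's target is sequenced, and a library made with IgG of no fly target measures the background. Ovaries came from wild-type Oregon-R females, about 200 per experiment, collected 12 h after eclosion. The lysate of each of 2 experiments was divided among anti-IgG, anti-Lsd1 and anti-Bre1, so that each antibody has 2 libraries and all 6 share strain, genotype, age and tissue. The RNA was total RNA made into libraries without polyA selection, with a kit that does not mark strand. The 26 members that overlap another chromosome 4 gene therefore cannot be fully told apart from it. Ovaries of this age hold young egg chambers together with follicle cells and a muscle sheath, and dissected ovaries can carry fat body. In such bulk samples fewer cells of a type and less RNA per cell cannot be told apart.

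Experiment 1 was deposited as Cufflinks FPKM, a level in fragments scaled for transcript length and depth, and experiment 2 as RPKM, the like level in reads, beside read counts. Experiment and method of quantification cannot be told apart, so each antibody is set beside the IgG library of its own experiment. Counts outside ribosomal RNA were 1443397 (IgG), 1606792 (Lsd1) and 215005 (Bre1) estimated fragments in experiment 1, and 8739562, 1619605 and 7447852 exon reads in experiment 2. The Bre1 library of experiment 1 and the Lsd1 library of experiment 2 stood apart from the rest. They held 2036 and 1416 genes at a level of at least 1, against 5485 to 6695 in the other 4 libraries. Ribosomal RNA took 88.7% of exon reads with Lsd1 in experiment 2, against 57.6% with IgG and 76.3% with Bre1. The 100 genes with the highest level held 51.8% of protein-coding signal with Lsd1 there, against 19.3% and 23.3%; in experiment 1 they held 52.4% with IgG, 44.2% with Lsd1 and 42.4% with Bre1. Germline markers were split in the Lsd1 library of experiment 2. Pooled, the 4 markers (osk, nos, vas and bam) had 3.20% of their IgG reads, against 13.2% for protein-coding genes of chromosomes other than 4. By gene, osk had 0.427%, nos 1.65% and bam 0, while vas had 19.3%. Their summed level was 475 RPKM with IgG there and 18.5 with Lsd1, of which vas gave 16.5. The 5 muscle markers there had 107% of their IgG reads (summed levels of 47.6 with IgG and 64.3 with Lsd1), and the 3 somatic ovary markers (tj, Fas3, zfh1) 23.1%. The somatic ovary markers were split as well, with 34.4% for tj, 20.9% for Fas3 and 8.37% for zfh1. The 4 genes listed for fat body had 65.3%, which came from Yp1 (87.7%) and Yp2 (51.8%) alone. Fbp1 and Lsp2 had 3 and 1 reads with IgG and 0 with Lsd1, too few to judge fat body. Neuron markers (elav, nSyb, brp, Syt1) summed to 0.0963 to 1.25 RPKM or FPKM in every library, and hemocyte markers (Hml, NimC1, Pxn) to 0.141 to 0.742. With IgG nearly all of the neuron sum was elav (0.515 FPKM and 0.499 RPKM). With Lsd1 in experiment 2 elav had 13 reads, against 259 with IgG. There nSyb, brp and Syt1 had 11, 6 and 2 reads, against 2, 2 and 1 with IgG. In the Bre1 library of experiment 1 the pooled germline markers had 5.31% and the pooled muscle markers 16.6% of IgG, against 13.4% for chromosomes other than 4. Both lists were split there. Among germline markers osk had 2.03%, nos 3.11%, bam 15.0% and vas 35.4%. Among muscle markers Mlc2 had 2.61%, wupA 3.48%, Mhc 16.8%, up 22.7% and sls 26.7%. The part of these library features and markers in the results for chromosome 4 was not tested.

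Chromosome 4 members had long transcripts and long genes. Their median exon length was 4356 bases, against medians of 1657 to 1983 bases on the other chromosome arms, and their median gene length was 10444.5 bases, against 1982 to 2518.5. They span bases 879 to 1271759 of chromosome 4 in the dm6 coordinates of the files. Of the members, 69 symbols are in the RefSeq gene table, 68 of them with the same start and end. In the transcript annotation of experiment 1, 66 members have more than 1 transcript.

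Most of the chromosome was detected in ovary RNA. A level of at least 1 was reached by 44 members with IgG in experiment 1 and by 45 in experiment 2, or 57.9% and 59.2%, against 44.5% and 46.3% of the protein-coding genes of other chromosomes. With anti-Lsd1 the numbers were 47 members in experiment 1 and 0 in experiment 2. With anti-Bre1 they were 5 members in experiment 1 and 38 in experiment 2. The other chromosomes kept 9.59% of their genes at that level with Lsd1 in experiment 2 and 14.4% with Bre1 in experiment 1. In the Lsd1 library of experiment 2, 37 members had no exon read (48.7%), as did 53.3% of the genes of other chromosomes, and a count of 0 allows up to 3 reads.

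**Figure D1:**
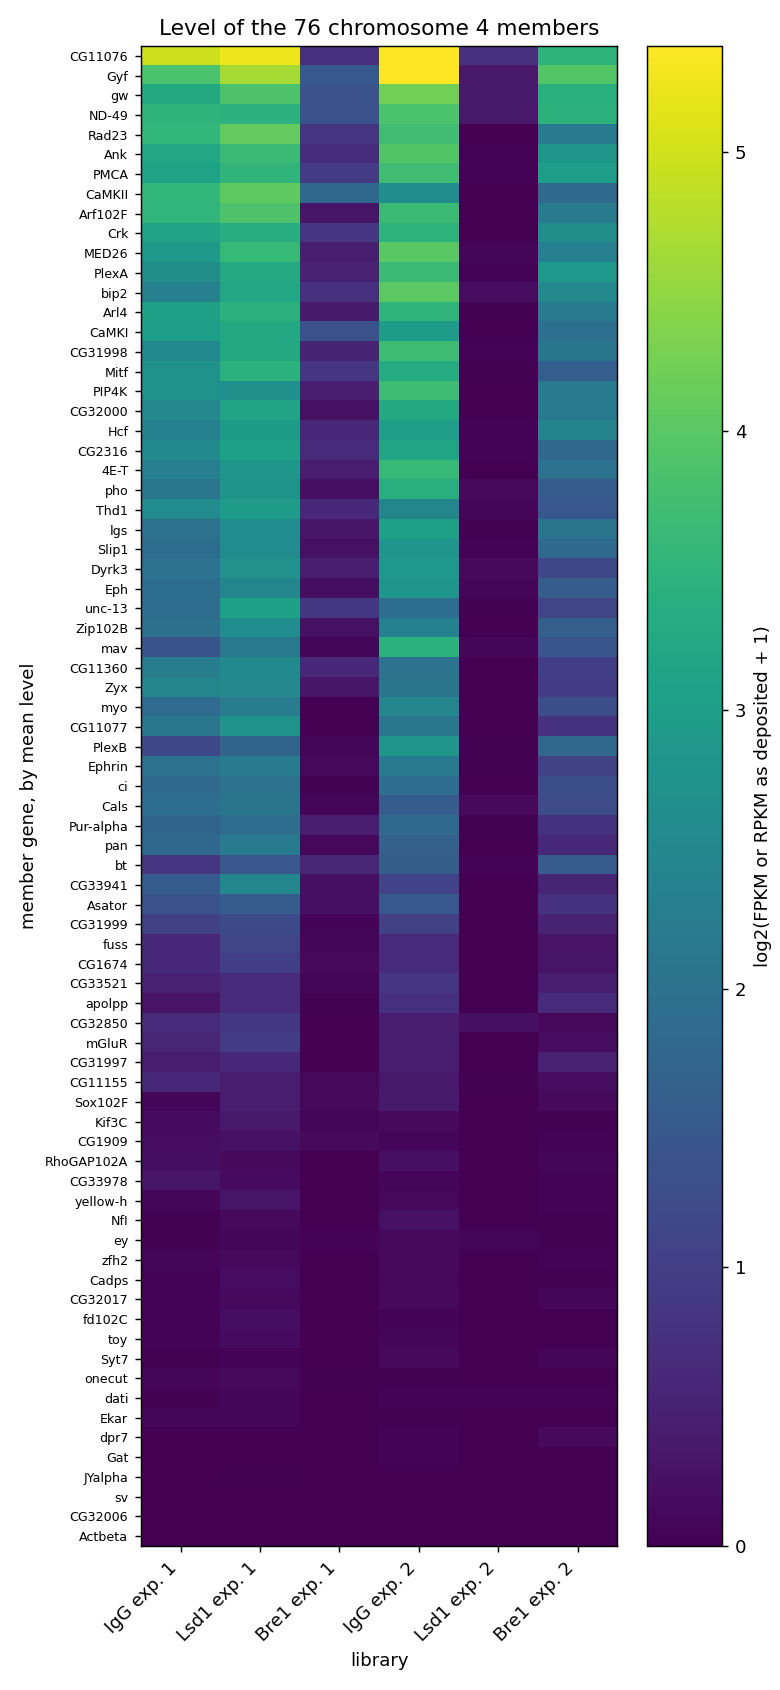
Levels of all 76 members in the 6 libraries, as log2 of the deposited FPKM (experiment 1) or RPKM (experiment 2) plus 1, with members in rows by mean level and libraries in columns. The column for Lsd1 in experiment 2 is dark throughout, with no member at a level of 1, and the column for Bre1 in experiment 1 holds 5 members at that level.

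The 8 members with the highest mean level per length were led by CG11076, Gyf and gw. CG11076, at bases 1029711 to 1031757, had 30.3 FPKM for IgG, 37.0 for anti-Lsd1 and 0.644 for anti-Bre1 in experiment 1, then 40.7, 0.672 and 10.4 RPKM in the second experiment. Gyf, at bases 853557 to 867025, encodes a GYF-domain translation regulator and stood at 13.4, 24.2 and 1.77 FPKM in experiment 1, then at 40.7, 0.299 and 14.3 RPKM. The Argonaute partner gw (GW182), at bases 649041 to 663103, had 8.60, 13.6 and 1.58 FPKM and then 17.9, 0.312 and 9.62 RPKM. All 3 genes were highest with Lsd1 in experiment 1 and lowest with Lsd1 in experiment 2, so the order of the antibodies was not shared by the experiments. The other 5 were ND-49, a subunit of respiratory complex I, the plasma membrane calcium pump PMCA, the proteasome shuttle factor Rad23, the adaptor Ank and the kinase CaMKII. Their IgG levels were 7.72 to 10.9 FPKM in experiment 1 and 5.26 to 14.1 RPKM in experiment 2.

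Among the 17 transcription factors and cofactors of the chromosome, 7 reached a level of 1 with IgG in both experiments. These were MED26 (a Mediator subunit), Mitf, Hcf, pho (a DNA-binding Polycomb group protein), lgs and pan (the cofactor and the DNA-binding factor of Wnt signalling) and ci (the transcription factor of Hedgehog signalling). The eye genes ey and toy, and sv, onecut, dati, fd102C, NfI and zfh2, stayed at or below 0.180 in all 6 libraries. Sox102F reached 0.333 and fuss 1.19 at most, both with Lsd1 in experiment 1. The TGF-beta ligands differed among themselves. Actbeta had no IgG count in either experiment, myo had 2.68 FPKM and 4.49 RPKM with IgG, and mav had 1.65 FPKM and 9.87 RPKM. Of the 12 neuronal and guidance genes, the semaphorin receptors PlexA and PlexB, the receptor Eph and its ligand Ephrin, unc-13 and Cals reached a level of 1 with IgG in both experiments. The synaptic genes Gat, Ekar, dpr7, Cadps, Syt7 and mGluR stayed below 1 in all 6 libraries.

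Summed over the 76 members, the share of protein-coding signal was lower with Bre1 than with IgG in both experiments. With Lsd1 it was far lower in experiment 2, and its direction in experiment 1 depended on 3 genes. In experiment 1 the members' share of summed FPKM was 0.284% for IgG, 0.398% for anti-Lsd1 and 0.196% for anti-Bre1. In experiment 2 their share of summed RPKM was 0.644%, 0.0276% and 0.448% in the same order. Set against IgG of the same experiment, the Lsd1 share was 1.41-fold higher in experiment 1 and 23.3-fold lower in experiment 2. The Bre1 share was 1.45-fold and 1.44-fold lower. With RpS3A, ATPsynbeta and eIF4G1 put back, the Lsd1 share of experiment 1 turned to 0.988 times the IgG share, and with such names left out on every chromosome it was 1.21 times. Under the same changes the Lsd1 share of experiment 2 was 14.4-fold and 17.4-fold lower. The Bre1 share was 3.67-fold and 2.01-fold lower in experiment 1, and 1.21-fold and 1.39-fold lower in experiment 2. None of the 5 other arms moved so far in experiment 2: their Lsd1 shares were 0.834 to 1.13 times the IgG share, and their Bre1 shares 0.964 to 1.03 times. In experiment 1 their Lsd1 shares were 0.929 to 1.05 times and their Bre1 shares 0.758 to 1.29 times the IgG share.

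**Figure D2:**
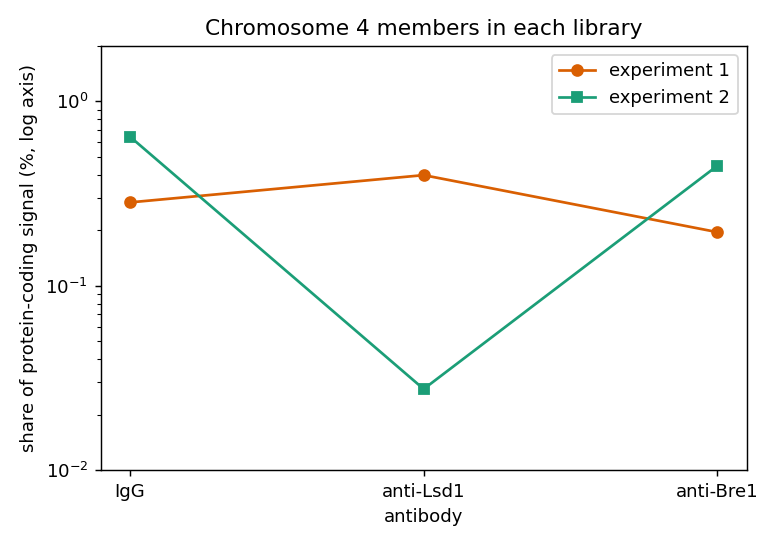
Share of summed protein-coding signal given by the 76 members (percent, log axis) for each antibody, with 1 point per library and a line per experiment. The experiment 2 line drops from 0.644% with IgG to 0.0276% with Lsd1, while the experiment 1 line goes from 0.284% to 0.398%.

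Exon reads of experiment 2, which are not divided by length, gave the same order. Members took 1.08% of protein-coding exon reads for IgG (exact 95% binomial interval 1.08 to 1.09). They took 0.0600% for anti-Lsd1 (0.0555 to 0.0648) and 0.819% for anti-Bre1 (0.812 to 0.825). The sums were 91748, 665 and 58640 reads, and intervals cover counting error only. Of the 665 reads with Lsd1, 620 were counted as unique.

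With anti-Lsd1 in experiment 2, few reads fell on chromosome 4 members of any role. This is the library with the highest share of ribosomal RNA given above, whose part was not tested. Pooled exon reads came to 0.725% of the IgG reads, against 13.2% for the other chromosomes, an 18.2-fold difference. The other chromosomes here keep the name types left out of members. Without those names they had 11.4%. Percentages of IgG counts are not scaled for depth, so each is read against the same percentage on the other chromosomes. Among members with at least 50 IgG reads, 51 of 54 lay at least 2-fold below the median protein-coding gene (5.19% of IgG), where 34.9% of all protein-coding genes did. Lsd1 reads were under 1% of IgG reads for 44 of the 54, against 23.7% of all protein-coding genes. The same comparison in experiment 1 went the other way. Lsd1 fragments came to 141% of IgG for members and 110.2% for other chromosomes, or 119.6% without the left-out name types. In that experiment 0 of 41 members lay at least 2-fold below the median gene, where 1.16% of protein-coding genes did.

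Members with many IgG reads show how few were left in that library. The 29 members with at least 1000 IgG reads had between 0% and 2.12% of them with Lsd1, with a median of 0.533%, against a median of 6.80% over 2179 genes of other chromosomes that pass the same minimum. Of these members, 23 were under 1%, as were 9.82% of the other genes. PlexA had 6033 exon reads for IgG, 17 for anti-Lsd1 and 4996 for anti-Bre1. PMCA had 4597, 13 and 4062 reads, and the translational repressor 4E-T had 1984, 0 and 850. In all 3 the Lsd1 library was lowest by far, while the Bre1 library kept between 42.8% and 88.4% of the IgG reads. No Lsd1 read fell on the exons of 8 of the 40 members that had at least 500 IgG reads, and of 78 of 3410 such genes on other chromosomes (2.29%). The 8 were 4E-T, Rad23, CaMKI, myo, PIP4K, ci, Crk and Arf102F. These include a ligand, a transcription factor, kinases, a signalling adaptor and a small GTPase.

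A few members kept more reads. ND-49 had 1037, 22 and 1189 reads in the order above, so that Lsd1 kept 2.12%. Cals, which encodes calsyntenin, kept 4.72% (28 of 593 reads) and the glutamate receptor gene CG11155 kept 7.53% (7 of 93 reads). CG32850, which overlaps PMCA, kept 46.8% (44 against 94 reads), but 0 of the 44 Lsd1 reads were counted as unique. The 3 genes left out by name had like values in the same library: 2.63% of IgG reads for RpS3A, 0.386% for ATPsynbeta and 0.798% for eIF4G1.

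The difference was present within bands of level and of transcript length. Among genes with 5 to 20 FPKM with IgG in experiment 1, the 16 members had 0.633% of IgG reads with Lsd1 in experiment 2, which was 17.3-fold below the 1632 genes of other chromosomes. Between 1 and 5 FPKM the values were 0.540% for 27 members and 8.69% for 3980 genes. By exon length the difference was 20.8-fold below 2000 bases, 34.4-fold from 2000 to 4000, 12.4-fold from 4000 to 8000 and 14.4-fold above. In experiment 1 the Lsd1 percentage was 108% for members and 90.3% for other chromosomes below 2000 bases, and 135% and 109.5% from 2000 to 4000. It was 141% and 132% from 4000 to 8000 bases, and 160.0% and 163% above.

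**Figure D3:**
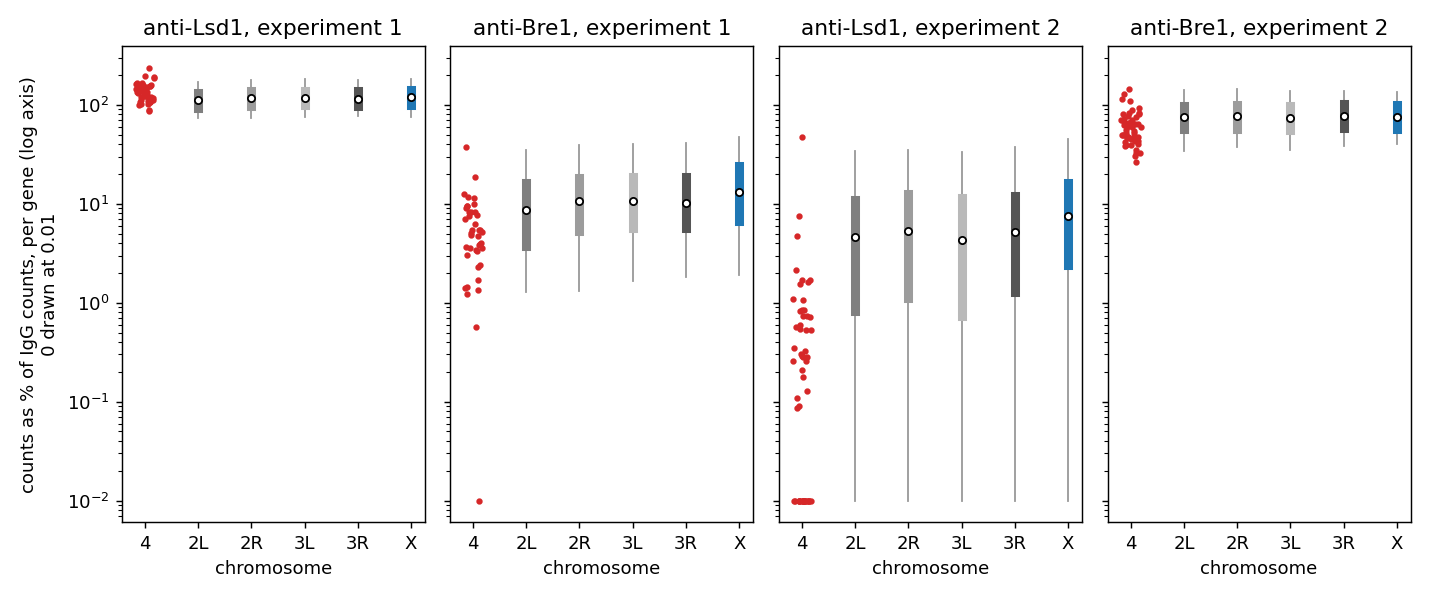
Counts as a percentage of the IgG count of the same gene (log axis), for genes with at least 50 IgG counts, in the 4 comparisons of antibody and experiment. Red points are chromosome 4 members; for each other arm a white point marks the median, the thick bar the quartiles and the thin line the 5th to 95th percentile, with values of 0 drawn at 0.01. Members reach down to 0 with Lsd1 in experiment 2, around a median of 0.270% against 4.33% to 7.53% on other arms.

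With anti-Bre1, members were lower than other genes in both experiments, and by less than with Lsd1 in experiment 2. Pooled fragments came to 7.50% of IgG in experiment 1, against 13.4% for other chromosomes, and pooled reads to 63.9% in experiment 2, against 84.9%. Without the left-out name types the other chromosomes had 15.6% in experiment 1 and 83.7% in experiment 2. Of members with at least 50 IgG counts, 22 of 41 lay at least 2-fold below the median protein-coding gene in experiment 1 (24.1% of all protein-coding genes). In experiment 2, 5 of 54 did (5.63% of all), a share near the background. In experiment 1 the difference was 2.01- to 3.12-fold in each of 4 bands of exon length. In experiment 2 it was 1.39- to 1.80-fold below 8000 bases and 1.05-fold above.

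Fitted over both experiments, the members lowest with Bre1 were CG11076, Arf102F and CG11077. CG11076 had 451 fragments for IgG, 493 for anti-Lsd1 and 6 for anti-Bre1, followed by 2900, 47 and 1138 reads in the second experiment. The small GTPase gene Arf102F, at bases 1124167 to 1125325, gave 81, 90 and 1 fragments, then 529, 0 and 248 reads. CG11077, next to CG11076 at bases 1028675 to 1029361, gave 22, 33 and 0 fragments, then 111, 0 and 36 reads. All 3 were named from members below the median gene with Bre1 in both experiments, so being low in both follows from that choice. The Bre1 values of experiment 1 rest on 0 to 6 fragments. The ligand mav was lowest of the members with at least 50 IgG reads with Bre1 in experiment 2, with 346 of 1293 reads (26.8%), and had 1 of 59 fragments (1.69%) in experiment 1.

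The muscle gene bt stood at the other end. It encodes projectin, a giant titin-like protein of the sarcomere, and lies at bases 724400 to 776474. Its counts were 311 fragments for IgG, 612 for anti-Lsd1 and 116 for anti-Bre1, followed by 2740, 47 and 4004 reads. With Bre1 this is 37.3% and 146% of IgG, the highest among members with at least 50 IgG counts in both experiments. Pooled, the muscle markers had 16.6% and 153% of IgG with Bre1 in the same libraries. They ranged from 2.61% (Mlc2) to 26.7% (sls) in experiment 1 and from 95.4% (wupA) to 225% (Mhc) in experiment 2. Their part in the value of bt was not tested. With Lsd1 in experiment 2, bt kept 1.72%. The muscle markers there ranged from 11.7% in sls, another titin-like gene, through 68.1% in Mlc2 and 81.3% in wupA to 135% in Mhc and 179% in up.

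A linear model across all genes asked whether any member differed from IgG over both experiments. Values were scaled between libraries and put on a log2 scale with a pseudocount of 1. Genes with a level of at least 1 in at least 2 libraries were tested, 6687 in all, with experiment as a block in limma and Benjamini-Hochberg adjustment. Of the members, 45 passed this filter, and the 31 that did not had values up to 1.19 FPKM or RPKM. For Lsd1 over IgG, 0 of 45 members passed an adjusted p of 0.05 (0.0299% of tested genes did), and for Bre1 over IgG likewise 0 of 45 (0.0299%). At an unadjusted p under 0.05 there was 1 member for Lsd1 (2.35% of tested genes) and 3 for Bre1 (3.89%). edgeR's quasi-likelihood test on counts called 0 genes in either comparison. With 2 libraries per antibody, limma took the spread mainly from all genes (prior df 119, residual df 2). Its p-values therefore say little about the spread of a single gene between its own libraries, and they cover these libraries only.

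Relative to the median of all tested protein-coding genes, the median member was lower in the fit for both antibodies. The difference was -0.52 on the log2 scale for Lsd1, made up of 0.18 in experiment 1 and -1.27 in experiment 2. For Bre1 it was -0.43, with -0.54 in experiment 1 and -0.30 in experiment 2. The same medians for the other arms lay between -0.06 and 0.10 for Lsd1 and between -0.09 and 0.09 for Bre1. Without the Lsd1 library of experiment 2 the Lsd1 median turned to 0.25, and without the Bre1 library of experiment 1 the Bre1 median was -0.02. Such a fit takes the difference between experiments from the antibodies left with both libraries, so those libraries enter the value too. It is not the ratio within the remaining experiment, which for Bre1 in experiment 2 was -0.30. All genes tested had a median of -0.41 for Lsd1 and -0.33 for Bre1, so the fitted values that follow are given relative to these medians. The p-values beside them test the ratio before this shift. Below the median of all tested genes in both experiments were 12 of 45 members for Lsd1 (22.5% of tested genes) and 31 of 45 for Bre1 (27.9%). Above it in both were 1 member for Lsd1 (22.5%) and 2 for Bre1 (27.9%).

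Members named from the fit lay, by the rule that chose them, on 1 side of the median in both experiments. PIP4K, a lipid kinase gene at bases 1192419 to 1196848, had 102, 90 and 4 fragments for the 3 antibodies in that order, then 858, 0 and 410 reads. Its fitted Lsd1 ratio lay at -1.14 ± 0.72 (SE, log2 scale) with a limma adjusted p of 0.962. The ratios of CG11076, Arf102F, Crk, ND-49 and CaMKI, the others lowest of those below the median in both experiments, lay between -1.08 and -0.70 with a limma adjusted p of 0.962 each. CG33941 was the 1 member above the median in both, at 0.39 ± 0.54, or -0.020 before the shift (limma adjusted p = 0.998). For Bre1, CG11076 lay at -1.78 ± 0.82, Arf102F at -1.28 ± 0.74 and CG11077 at -0.92 ± 0.61, each with a limma adjusted p of 1.00. MED26, Arl4 and pho followed at -0.92 to -0.83. On the upper side bt lay at 0.77 ± 0.57 and gw at 0.02 ± 0.77. None of these ratios was larger than the spread that the fit allows after adjustment. By role, the median relative Lsd1 ratio was -0.53 for the 7 tested transcription factors, -0.76 for the 4 RNA and translation regulators, -0.75 for the 14 housekeeping and signalling genes and -0.37 for the 6 neuronal and guidance genes. For Bre1 the same medians were -0.52, -0.32, -0.35 and -0.32, with 0 members passing in any list.

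Genes in the pericentric heterochromatin of other chromosomes gave pooled values close to those of chromosome 4, with a lower median gene for Lsd1 in experiment 2. Of 15 such genes listed by name, 11 were tested and 0 passed for either antibody. In experiment 2 their pooled counts were 0.942% of IgG for anti-Lsd1 and 63.3% for anti-Bre1, against 143% and 6.45% in experiment 1. In experiment 2 the cohesin gene vtd had 1802 reads for IgG, 1 for anti-Lsd1 and 654 for anti-Bre1, the piRNA pathway gene AGO3 had 1570, 1 and 892, and the cohesin loader gene Nipped-B had 4945, 20 and 2755. The 2 exceptions among the 11 were su(f) with 7.21% and Set1 with 3.41% of IgG reads with Lsd1. They gave 33 and 114 Lsd1 reads, most of those in the list, so the pooled 0.942% rests largely on them. The median of the 11 genes was 0.0999%, against 0.270% for members with at least 50 IgG reads. The 13 genes that encode regulators of chromosome 4 and heterochromatin, which lie on other arms, stood at 6.11% and 63.8% in the second experiment, against 154% and 23.1% in the first. Among these, Pof itself had 514, 10 and 216 reads in experiment 2 and egg 791, 34 and 992.

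A tiling of the other arms showed where else such low values lay. With genes of the left-out name types removed everywhere, 124 windows of 1 Mb had at least 5000 IgG reads in experiment 2. The Lsd1 percentage was under 2% in 8 of them, a limit set after the values were seen, and between 3.25% and 29.2% in the rest, with a median of 10.3%. Chromosome 4 as a whole, at 0.725%, lay among the 8. The lowest window was on 3L from base 27000001 to 28000000, with 9 reads against 10310. Next were 3R from 3000001 to 4000000 (15 against 5614) and 2R from 1000001 to 2000000 (16 against 5129). Of the 8, 7 lie toward the centromere, which is at the end of 2L and 3L and at the start of 2R and 3R. The eighth, 3R from 32000001 to 33000000, lies at the tip of its arm and holds 4 genes. With Bre1 in experiment 1 the 8 windows had 0.740% to 6.98% of IgG fragments, chromosome 4 had 7.50%, and the median of the others was 16.2%. With Bre1 in experiment 2 the 8 windows ran from 42.4% to 85.3% of IgG reads, or ranks 1 to 78 of 125 from the lowest. Chromosome 4 had 63.9% and rank 8 there, so not all 8 windows were low in that comparison. With Lsd1 in experiment 1 the 8 had 90.9% to 155% and the others a median of 122%. Not every centromere-proximal window was low: X from 22000001 to 23000000 had 4.67% with Lsd1 in experiment 2.

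**Figure D4:**
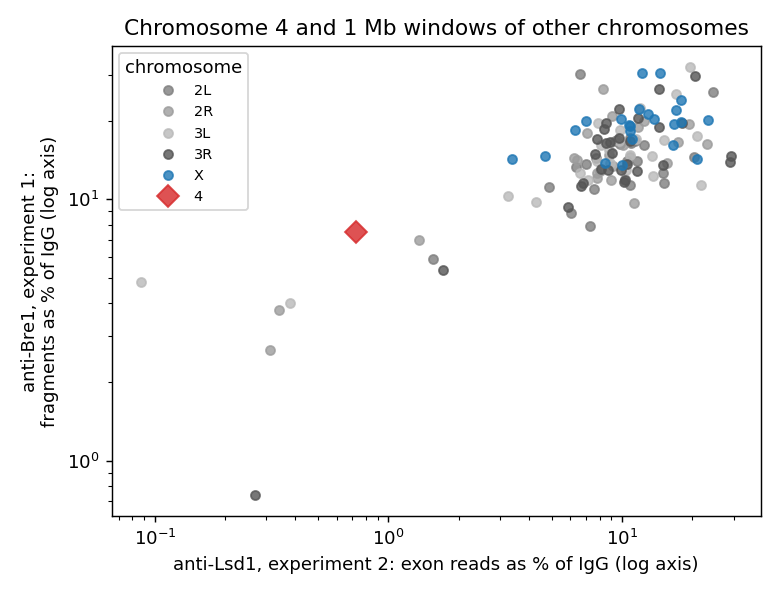
Chromosome 4 (red diamond) and 124 windows of 1 Mb on the other arms (circles), by exon reads with Lsd1 as a percentage of IgG in experiment 2 (horizontal, log axis) and fragments with Bre1 as a percentage of IgG in experiment 1 (vertical, log axis). Chromosome 4, at 0.725% and 7.50%, lies with 8 windows under 2% and apart from the others, which begin at 3.25%.

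Intron reads were counted in experiment 2. Of exon plus intron reads of members, introns took 4.81% for IgG (exact 95% binomial interval 4.68 to 4.95). They took 48.7% for anti-Lsd1 (46.0 to 51.5) and 5.27% for anti-Bre1 (5.10 to 5.45). On the other arms the ranges were 6.64% to 8.30%, 1.25% to 10.5% and 1.56% to 2.00% for the 3 antibodies in that order. The median member with at least 20 reads had 3.72% with IgG and 4.09% with Bre1, against medians of 0.48% to 0.80% and 0.51% to 0.77% on the other arms. Members also have longer introns: the median gene exceeds its exons by 5064 bases, against 184 to 333.5 on the other arms. Per intronic base, relative to 1000 exon reads per exon base, members had 33.0 intron reads with IgG, below the 39.3 to 52.1 of the other arms. With Lsd1 this density was 621 against 6.99 to 70.3, and with Bre1 36.4 against 9.46 to 12.2. Pooled intron reads of members with Bre1 were 70.4% of the IgG reads, beside 63.9% for exons. On the other arms pooled intron reads were 16.5% to 21.8% of IgG and exon reads 81.2% to 86.9%. The median intron share of genes on those arms showed no such fall, at 0.48% to 0.80% with IgG and 0.51% to 0.77% with Bre1. The pooled contrast with Bre1 is therefore not one of the median gene. With Lsd1, intron reads of members were 13.6% of IgG (632 against 4639), which lies within the 2.48% to 15.4% of the other arms, while their exon reads, at 0.725%, lay below the 11.4% to 14.6% there. Without strand, reads of another transcript that overlaps an intron are counted in it.

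The intron reads with Lsd1 came from few members. Pur-alpha, CG1909, CG32850 and CaMKI held 525 of the 632, or 83.1%. Pur-alpha, a gene for a single-stranded DNA and RNA binding protein at bases 558016 to 567257, had 70 intron reads for IgG, 251 for anti-Lsd1 and 147 for anti-Bre1, beside 374, 4 and 163 exon reads. CG1909, at bases 583108 to 589348, had 656, 162 and 787 intron reads beside 6, 0 and 6 exon reads. CaMKI had 100, 33 and 83 intron reads beside 1106, 0 and 730 exon reads. In CG32850 there were 74, 79 and 41 intron reads, of which 49, 9 and 35 were counted as unique. Lsd1 gave more intron reads than IgG in Pur-alpha and CG32850, and among unique reads in Pur-alpha (243 against 66) but not in CG32850. In PMCA and CaMKII, which had 516 and 457 intron reads with IgG, Lsd1 gave 1 and 0. The 72 members other than those 4 had an intron share of 3.98% for IgG, 14.8% for anti-Lsd1 (107 of 724 reads) and 3.68% for anti-Bre1. Exon-exon junctions took 19.6%, 16.1% and 19.7% of members' exon reads with IgG, Lsd1 and Bre1.

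**Figure D5:**
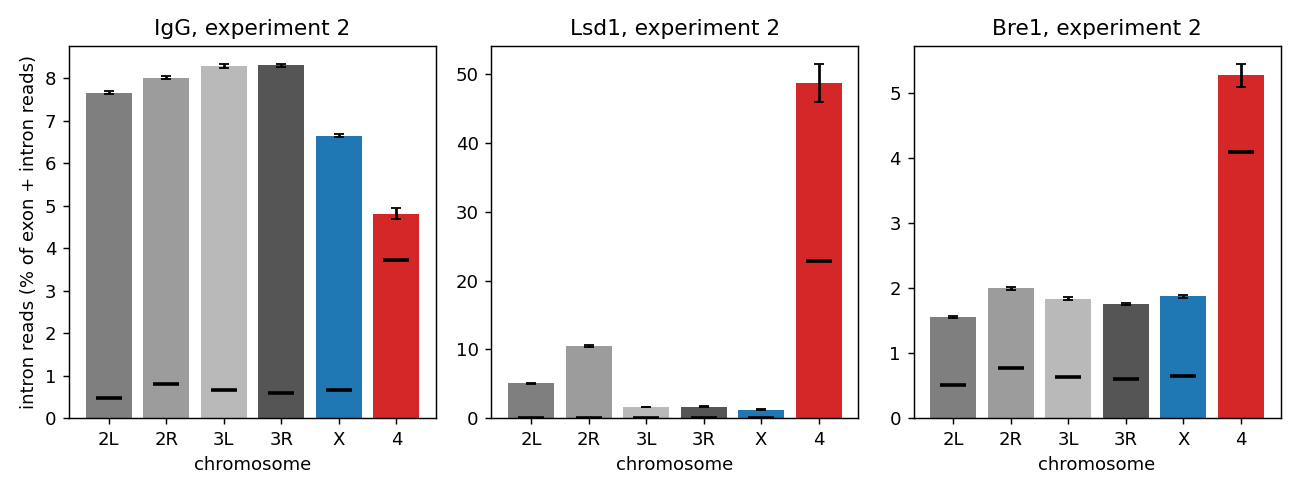
Intron reads as a percentage of exon plus intron reads in the 3 libraries of experiment 2, by chromosome arm, with exact 95% binomial intervals as error bars and the median over genes with at least 20 reads as a black line; the vertical axes differ in range and start at 0. By pooled reads (bars), chromosome 4 (red) is lowest with IgG at 4.81% and highest with Lsd1 at 48.7% and with Bre1 at 5.27%. By the median gene it is highest with IgG as well, at 3.72% against 0.48% to 0.80% on the other arms. Of its intron reads with Lsd1, 83.1% fell on 4 members.

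Members varied among themselves with their length more than with their place. Across the 54 members with at least 50 IgG reads, Spearman's rho between exon length and the percentage of IgG in experiment 2 was 0.27 for Lsd1 and 0.38 for Bre1, as a description of points that share libraries. With position along the chromosome rho was 0.06 and -0.18. In experiment 1, across 41 members, rho with exon length was 0.26 for Lsd1 and 0.34 for Bre1, and with position 0.02 and 0.07. Length trends were not particular to members. On other chromosomes, pooled percentages of experiment 1 rose from 90.3% below 2000 bases to 163% above 8000 with Lsd1. With Bre1 they rose from 7.17% to 32.4%, beside 3.56% to 12.2% for members. In experiment 2 the pooled percentages of other chromosomes went from 21.9% to 10.1% with Lsd1 and from 81.7% to 87.4% with Bre1. Pooled members there went from 1.05% to 0.702% with Lsd1. Pooled values follow the genes with most reads, whereas rho weighs each gene alike. The median gene of other chromosomes with at least 20 IgG reads rose with length in experiment 2. It went from 3.41% to 8.22% with Lsd1 and from 68.5% to 84.4% with Bre1. Within Lsd1 of experiment 1 the members ran from 87.4% of IgG in ND-49 to 238% in unc-13, a presynaptic gene with 390, 929 and 73 fragments for IgG, anti-Lsd1 and anti-Bre1.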

How the data were processed

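The 6 libraries are IgG, Lsd1 and Bre1 immunoprecipitates of 2 experiments. The authors deposited FPKM values with confidence limits per transcript for experiment 1, in Cufflinks columns per the file headers. The tables of experiment 2 hold, as deposited, RPKM, TPM and raw read counts per gene, and fractions of unique and of intron reads, per the file headers. The submitters' processing notes name build dm6, Cufflinks, SAMtools (version 0.1.18.0), Bowtie2 (version 2.0.6.0) and TopHat; which program wrote the tables of experiment 2 they do not say. TPM and the fraction columns, as deposited, were not used in results.

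FPKM was summed over transcripts of a gene. Fragment counts of experiment 1 were estimated from the confidence limits (1-transcript genes) or from FPKM and length, and are estimates rather than deposited counts; 81.6% to 83.5% of low values came out within 0.05 fragments of a whole number. Tables were joined by gene ID (17021) or symbol (80). Levels were scaled by median ratios over 1028 genes, put on log2(value + 1) and fitted with limma 3.58.1 (R 4.3.3), with experiment as a block, a mean-variance trend and Benjamini-Hochberg adjustment. limma took the spread mainly from all genes (prior df 119, residual df 2). edgeR 4.0.16 and DESeq2 1.42.0 ran on read and fragment counts. Pooled counts, shares with exact binomial intervals, and medians carry no test, since genes are not replicates. The labels state that each lysate was divided among the antibodies, which pairs the libraries; deviations within an experiment correlated at 0.47 (IgG and Lsd1), 0.51 (IgG and Bre1) and 0.11 (Lsd1 and Bre1).

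Named genes are up to 6 members per direction that lie on the same side of the median of tested genes in both experiments, the 8 members with the highest mean level, and the leading members of role lists. The members and lists were chosen with earlier results of these data known.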

Additional observations from a re-analysis of the deposited data

How the results depend on the processing

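The number of called genes over all tested genes, 2 for each antibody, moved with most settings. For Lsd1 over IgG it was 0 without scaling, with quantile or upper quartile normalization, with a pseudocount of 0.1, with no filter on low values, with no replicate block, with no mean-variance trend, with the trend on exon length removed and in edgeR. It was 15 with a pseudocount of 5, and 12 both in DESeq2 and with the trend on the IgG level of the other experiment removed (an alternative added after the data were seen). Leaving out 1 library at a time gave 0 to 1805 called genes; the highest count came without Lsd1 replicate 1, when 37 of 45 members were called beside 1805 of 6687 tested genes, among them PIP4K, Gyf and Rad23. That fit has 1 Lsd1 library, which is assumed to vary like the other groups, so these are not calls over replicates of Lsd1. For Bre1 over IgG the count was 0 under the same 9 settings, 1 with a pseudocount of 5 and in DESeq2, and 5 with a minimum level of 5 or the IgG level trend removed; leaving out libraries gave 0 to 44.

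The chromosome 4 median for Lsd1 ranged from -1.29 (without Lsd1 replicate 1) to 0.25 (without Lsd1 replicate 2), and kept its sign under all settings that use the 6 libraries. The Bre1 median stayed below 0 throughout. It was -0.64 with a pseudocount of 0.1 and with the exon length trend removed, and -0.19 with a pseudocount of 5. Over left-out libraries it ran from -0.88 to -0.020. Those values also depend on the antibodies left with both libraries, which set the difference between experiments in such a fit. With RpS3A, ATPsynbeta and eIF4G1 put back, the chromosome 4 share of signal was 1.12% with IgG and 1.11% with Lsd1 in experiment 1, and 1.08% with IgG and 0.892% with Bre1 in experiment 2. With such names left out on every chromosome, an alternative added later, the experiment 1 shares were 0.552% (IgG) and 0.666% (Lsd1), and the pooled difference with Lsd1 in experiment 2 was 15.7-fold. Unique reads alone gave exon read shares of 1.12% (IgG) and 0.845% (Bre1). Intron shares without the member with most intron reads were 4.16%, 41.4% and 4.05% for IgG, Lsd1 and Bre1, and the medians over members were 3.72%, 22.9% and 4.09%.

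Among named members, signs turned as follows, on the relative log2 scale. Lsd1, CG33941: -0.016 with quantile normalization, -0.16 with a pseudocount of 0.1, -0.038 in edgeR and -0.21 in DESeq2. Bre1, bt: -0.12 with the exon length trend removed. Bre1, gw: -0.30 without scaling, -0.0014 with quantile normalization, -0.064 with a pseudocount of 5, -0.24 with no filter and -0.39 with the length trend removed. Bre1, ND-49: -0.20 without scaling and -0.15 with no filter. Bre1, CaMKII: -0.22, -0.14 and -0.12 without scaling, with no filter and with the length trend removed. Bre1, PMCA: 0.11 in edgeR and 0.10 in DESeq2. Over left-out libraries the Lsd1 ratio ran from -2.48 to 0.32 in CG11076, -2.27 to 0.32 in Arf102F, -1.91 to 0.051 in Crk, -2.69 to 0.40 in Gyf, -1.60 to 0.25 in gw, -2.02 to 0.19 in PMCA, -2.09 to 0.26 in Rad23, -2.22 to 0.27 in Ank and -0.93 to 0.044 in CaMKII. The Bre1 ratio ran from -0.45 to 0.50 in gw, -1.32 to 0.33 in Gyf, -0.45 to 0.69 in ND-49, -0.95 to 0.61 in PMCA, -1.50 to 0.33 in Ank and -0.24 to 0.47 in CaMKII. In fits with a library left out, the difference between experiments comes from the antibodies left with both libraries. These ranges are therefore not ratios within 1 experiment. The causes were not tested. Depth limits the Lsd1 values of experiment 2 and the Bre1 values of experiment 1, where the members share 665 reads and 813 fragments.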
